A study of Homo sapiens with 8 samples.

Results

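Glycolysis splits glucose into pyruvate in the cytosol, the pyruvate dehydrogenase complex turns pyruvate into acetyl-CoA in the mitochondrial matrix, and the tricarboxylic acid (TCA) cycle oxidizes acetyl-CoA there. Glycolytic enzymes are made at very high levels in dividing cell lines, which release much of their pyruvate as lactate. Trivalent arsenic binds the paired thiols of lipoic acid, the cofactor carried by the pyruvate and 2-oxoglutarate dehydrogenase complexes, so these enzymes are known targets of arsenite at the protein level. The genes described here are 43 of the 19964 genes with a coding transcript in the deposited counts, taken by symbol from a list of enzymes. They comprise 17 glycolytic genes, including lactate dehydrogenase, and 22 genes of the mitochondrial steps. Of the latter, 9 encode or regulate pyruvate dehydrogenase and 13 belong to the TCA cycle or, as PC does, feed it. The remaining 4 (ACO1, IDH1, MDH1 and ACLY) encode cytosolic enzymes that handle TCA metabolites. All 43 had a mean of at least 10 counts per library in each assay.

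HEK293T, a human embryonic kidney line that carries the SV40 large T antigen, was given 40 µM sodium arsenite or vehicle for 30 min. Each treatment was profiled by ribosome footprinting (ribo-seq) and by mRNA-seq of fragments from the same lysates, in 2 replicates, so that control and arsenite cells differ in the agent alone and all 8 libraries come from 1 line. The methods call the replicates independent and biological, and with 2 of them p-values rest on few libraries. In bulk lysates, fewer cells and less RNA per cell cannot be told apart. The ribo-seq libraries held 1023935 to 7270196 reads on the transcripts used and the mRNA-seq libraries 3993293 to 21724945, with replicate 1 the shallower in every case. Genes expected in this line (VIM, PAX2, EYA1, GATA3 and LHX1) all had mRNA-seq reads, from 141 for LHX1 to 18087 for VIM over the 4 libraries. Of 6 markers of other cell types, HBB, CDH5 and MYH7 had 0 mRNA-seq reads, COL1A2 had 2, ALB 9 and PTPRC 32, and all 6 had 0 ribo-seq reads on the coding sequence (CDS).

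Glycolytic mRNAs carried a far larger part of the ribosome footprints than mitochondrial ones. In control, the 17 glycolytic genes held 1.80% of all CDS ribo-seq reads in replicate 1 (95% Wilson interval 1.78 to 1.82) and 2.49% in replicate 2 (2.48 to 2.499), a mean of 2.14% ± 0.488 (SD, n = 2). The 22 mitochondrial genes held 0.370% (0.361 to 0.379) and 0.489% (0.484 to 0.494), a mean of 0.429% ± 0.0843 (SD, n = 2). The footprints on glycolytic mRNAs thus outnumbered those on mitochondrial ones 4.86-fold and 5.09-fold. In mRNA-seq CDS reads the corresponding ratios were 3.995 and 3.46. These intervals are for counting alone and are narrower than the gap between the replicates. Reads over a CDS also grow with its length, so these shares describe where the reads lay and do not rank the enzymes by number of proteins.

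A few mRNAs made up most of the glycolytic share. GAPDH, the dehydrogenase of the middle of the pathway, had 6184 CDS reads in replicate 1 and 52537 in replicate 2 of control ribo-seq. It took 0.327% and 0.730% of all CDS footprints and ranked 10 and 2 among all genes, so its share was higher in replicate 2. LDHB and LDHA, the lactate dehydrogenase subunits, took 0.303% and 0.330%, and 0.206% and 0.198%. PKM, which makes pyruvate, took 0.265% and 0.330%. ENO1, the main enolase, took 0.251% and 0.216%, and ALDOA, the main aldolase, 0.138% and 0.285%. The shares of GAPDH, ALDOA and GPI lay far apart between the replicates, and each was higher in replicate 2. Among glycolytic genes with fewer reads, PFKL (0.0121% and 0.0236%) and PFKP (0.00841% and 0.0157%) were higher in replicate 2 too. PGAM1 was lower there (0.0235% and 0.0106%). At the low end, ALDOC had 24 and 114 CDS reads and ENO2 had 69 and 289. Among mitochondrial genes, MDH2, the malate dehydrogenase that closes the TCA cycle, took 0.0655% and 0.114%, and CS, citrate synthase, which opens it, took 0.0574% and 0.0583%. DLD, the lipoamide dehydrogenase shared by both ketoacid complexes, took 0.0305% and 0.0354%. The pyruvate dehydrogenase subunits PDHA1 and PDHB took 0.0179% and 0.0341%, and 0.0198% and 0.0316%. The regulators were lowest, with 48 and 204 CDS reads for the kinase gene PDK1 and 38 and 161 for the phosphatase gene PDP1.

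**Figure D1:**
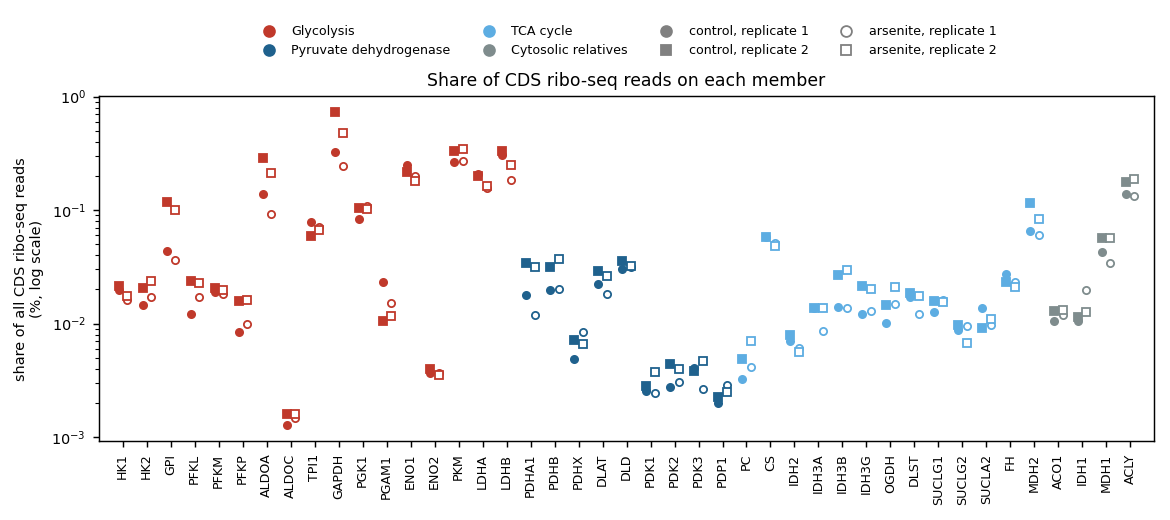
Share of all CDS ribo-seq reads on each of the 43 genes (percent, log scale) in the 4 ribo-seq libraries, coloured by pathway, with filled symbols for control and open symbols for arsenite, circles for replicate 1 and squares for replicate 2. GAPDH was highest in control replicate 2, at 0.730%, and ALDOC was lowest, at 0.00127% in control replicate 1.

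The enzymes' mRNAs were also well loaded with ribosomes for their abundance. Baseline translation efficiency (TE) was taken as ribo-seq over mRNA-seq counts, both on the CDS and both in control, on a log2 scale on which the median of all 10260 genes tested was -0.01. All 43 genes had an estimate above 0, and 40 of them were above 0 in both replicates, against 36.4% of all genes. The median was 1.03 over the glycolytic genes, 0.77 over the mitochondrial ones and 0.99 over the 4 cytosolic relatives. In edgeR's quasi-likelihood test 38 of the 43 passed an adjusted p of 0.05, all in the direction of more footprints, where 58.7% of all genes passed, 28.3% as higher and 30.3% as lower. All 17 glycolytic and all 4 cytosolic genes passed. The 5 that did not were PDHB (log2 0.25 ± 0.11, SE), PDHX (0.18 ± 0.18), PDK1 (0.05 ± 0.16), IDH2 (0.14 ± 0.13) and SUCLA2 (0.17 ± 0.15). With the replicate as a block within each assay, the error of this fit comes from the libraries of a replicate and leaves out the difference between replicates. Without the block 5 of the 43 passed (PGAM1, PKM, LDHA, PC and MDH2), where 197 of all 10260 genes passed as higher and 635 as lower. In the control libraries alone, with 1 additive block, 19 of the 43 passed, where 852 of all genes passed as higher and 1402 as lower.

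The highest values belonged to glycolysis. PGAM1, phosphoglycerate mutase, stood at log2 2.57 ± 0.18 (SE; edgeR, adjusted p = 4.35e-06), but with 3.63 in replicate 1 and 1.51 in replicate 2. Its mRNA-seq reads on the CDS were few, 66 of 354 on the transcript in control replicate 1 and 474 of 2205 in replicate 2. PGAM4 is a near-identical copy, and reads that fell on more than 1 gene had been discarded, so this value is uncertain. ENO1 followed at 1.57 ± 0.10, with 1.39 and 1.75 in the replicates. PKM stood at 1.54 ± 0.10, HK2 at 1.49 ± 0.11 and ALDOA at 1.48 ± 0.10. ALDOC, an aldolase of brain with few reads in this line, stood at 1.45 ± 0.22, close to ALDOA. GPI, glucose-6-phosphate isomerase, reached 1.41 ± 0.10 and ACLY, which cleaves citrate to acetyl-CoA in the cytosol, 1.41 ± 0.10. Values of several glycolytic genes were higher in replicate 2, as for GPI (0.80 and 2.01), HK2 (0.94 and 2.05) and GAPDH (0.71 and 1.34). Among mitochondrial genes PC, pyruvate carboxylase, was highest at 1.38 ± 0.15, then MDH2 at 1.26 ± 0.12.

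**Figure D2:**
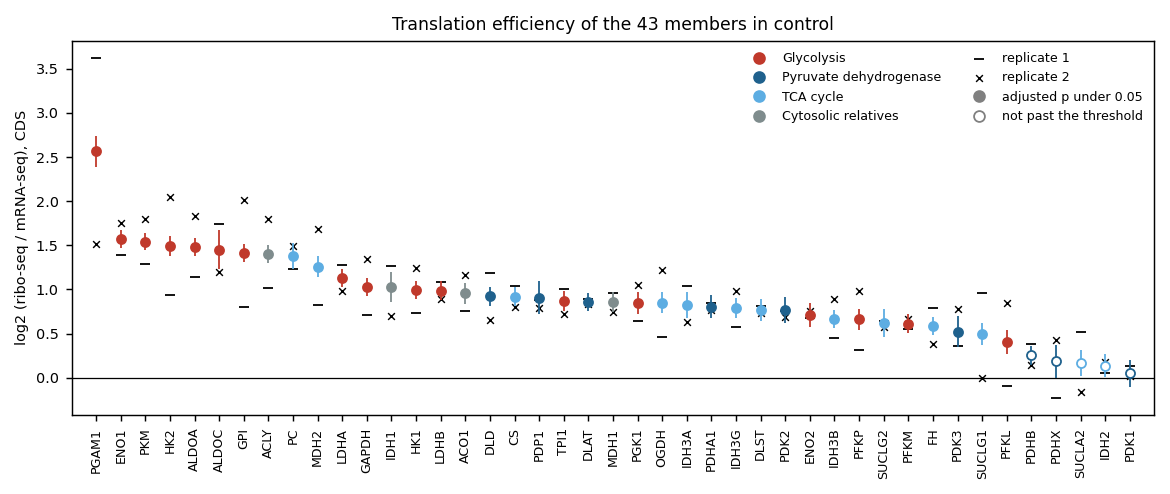
Baseline TE of the 43 genes in control, as log2 of ribo-seq over mRNA-seq CDS counts after scaling, ordered from high to low, with circles for the estimate, bars for its SE, dashes for replicate 1 and crosses for replicate 2. All estimates lie above 0, from 2.57 for PGAM1 to 0.05 for PDK1, and open circles mark the 5 genes that did not pass the test.

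After 30 min of arsenite the mRNAs of many glycolytic enzymes were slightly more abundant relative to other mRNAs. Of the 43 genes 12 rose in RNA level and 0 fell (edgeR's quasi-likelihood test, adjusted p of 0.05), where 5.75% of the 12600 genes tested passed, 3.75% as higher and 2% as lower. The 12 comprised 7 of 17 glycolytic genes (HK1, HK2, GPI, ALDOA, GAPDH, ENO1 and PKM), 3 of 22 mitochondrial genes (DLD, PC and MDH2) and 2 of 4 cytosolic relatives (ACO1 and ACLY). The median log2 change was 0.14 over the glycolytic genes and 0.05 over the mitochondrial ones, against -0.01 over all genes. All changes were small, and the largest was 1.31-fold. Without the replicate block none of the 43 passed, nor did any of all genes tested, of which 28 had an unadjusted p under 0.05. Counting mRNA-seq only within the CDS left 7 of the 43, where 201 of 11755 genes passed as higher. DESeq2 left 6 of the 43, where 80 of 12600 genes passed as higher.

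In levels, given as CPM (counts scaled to the library totals after TMM normalization), GPI rose from 326 to 423 in replicate 1 and from 257 to 339 in replicate 2. Both arsenite values lay above both control values, with a log2 change of 0.39 ± 0.05 (SE; edgeR, adjusted p = 1.41e-11). The fit draws its spread largely from all genes, so such an SE and p do not measure the spread between a gene's own 2 replicates. PKM, pyruvate kinase, rose from 1461 to 1794 and from 871 to 1163 CPM. Here control replicate 1 lay above arsenite replicate 2, and the log2 change within replicates was 0.36 ± 0.05 (adjusted p = 3.36e-11). HK1, a hexokinase that sits on the outer mitochondrial membrane, rose from 126 to 155 and from 74.9 to 95.2 CPM (log2 0.33 ± 0.06). ENO1 rose from 1012 to 1230 and from 734 to 913 CPM (0.30 ± 0.05), and ALDOA from 608 to 770 and from 614 to 735 CPM (0.29 ± 0.05). For ALDOA the groups did not overlap. HK2 rose by a log2 change of 0.26 ± 0.06 and GAPDH by 0.18 ± 0.05, from 1925 to 2226 and from 2285 to 2545 CPM.

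Neighbouring steps did not pass the test. LDHA had a log2 change of 0.11 ± 0.05 (edgeR, adjusted p = 0.172) and LDHB one of -0.02 ± 0.05. TPI1, triose phosphate isomerase, had -0.03 ± 0.05, PGK1, phosphoglycerate kinase, 0.01 ± 0.05, and PGAM1 -0.02 ± 0.06. For PGAM1 the replicates had -0.27 and 0.06, farther apart than its SE. The 3 phosphofructokinase genes PFKL, PFKM and PFKP, which encode the committed step, had 0.07, 0.14 and 0.17. ALDOC and ENO2 had -0.06 ± 0.16 and 0.00 ± 0.09, beside the rises of their isozymes ALDOA and ENO1. The difference between isozymes was not tested.

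In the mitochondrial group PC, with few reads, went from 14.4 to 14.99 CPM in replicate 1 and from 12.3 to 16.6 in replicate 2, so that most of its log2 change of 0.36 ± 0.12 (edgeR, adjusted p = 0.0451) came from replicate 2. MDH2 rose from 347 to 369 and from 294 to 349 CPM (0.18 ± 0.05) and DLD from 177 to 205 and from 223 to 246 (0.16 ± 0.05, adjusted p = 0.0413). PC and DLD no longer passed under upper-quartile scaling or without a filter on low counts. CS, at 0.13 ± 0.05, did not pass (adjusted p = 0.105), nor did any other subunit or regulator of pyruvate dehydrogenase, which lay between -0.06 for PDHB and 0.11 for PDK3. The lowest value of the 43 was -0.17 ± 0.07 for IDH2, the NADP-dependent isocitrate dehydrogenase of mitochondria (adjusted p = 0.145). Its cytosolic relative IDH1 had 0.02 ± 0.06. ACLY rose from 804 to 970 and from 452 to 544 CPM (0.27 ± 0.05, adjusted p = 5.56e-06) and ACO1, the cytosolic aconitase that also acts as an iron sensor, by 0.25 ± 0.07. MDH1 had -0.03 ± 0.05.

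To show what lies in front of such genes, the 250 bases before the gene's start were searched for ACGTG and its reverse complement CACGT, which overlap in CACGTG. These letters form the core of the site known for hypoxia-inducible factors, under which many glycolytic genes are regulated. RefSeq windows (GRCh38.p14) matched 41 of the 43 genes, and 32 had a window at the first base of the gene. The letters were present in 11 of these 32 (34.4%), against 24.1% of the 8291 genes tested for RNA level that had such a window. They were present in 6 of 11 glycolytic and 5 of 18 mitochondrial genes. Among the genes whose RNA rose, 3 of 8 held them, and among the others 8 of 24. A match is a description of the letters and not a site. The stretches around the matches nearest the start are shown for a glycolytic gene whose RNA rose, HK2, and for PGK1 and LDHA, whose RNA did not pass the test, with the match in capitals, 5′ to 3′ on the plus strand.
HK2, chr2:74834067-74834096, match starting 48 bases before the start: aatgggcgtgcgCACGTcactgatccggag
PGK1, chrX:78104053-78104082, 183 bases before: aaacggaagccgCACGTctcactagtaccc
LDHA, chr11:18394478-18394507, 73 bases before: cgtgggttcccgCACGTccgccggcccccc

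In the glycolytic group the share of footprints went down in arsenite while the share of mRNA reads went up. The share of CDS ribo-seq reads on the 17 glycolytic genes fell by 18.7% of its control value in replicate 1 and fell by 19.1% in replicate 2, to 1.46% (95% Wilson interval 1.44 to 1.49) and 2.01% (2.00 to 2.03). Their share of mRNA-seq CDS reads went up by 10.6% and 11.4%, from 1.10% in both replicates to 1.22% in both. The footprint share of the 22 mitochondrial genes fell by 6.99% of its control value in replicate 1 and fell by 8.12% in replicate 2, to 0.344% (0.333 to 0.356) and 0.449% (0.442 to 0.457), while their mRNA share went from 0.276% to 0.280% and from 0.317% to 0.332%. Glycolytic footprints outnumbered mitochondrial ones 4.25-fold and 4.48-fold in arsenite, less than in control in both replicates, and the ratio of mRNA-seq reads went up to 4.34 and 3.69. No p is given for sums over chosen genes, and with 2 libraries against 2 no exact test could pass the usual threshold. Without GAPDH the glycolytic footprint share in arsenite was 0.850 of control, against 0.811 with GAPDH (geometric mean of both replicates), and without MDH2 the mitochondrial share was 0.953, against 0.924.

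**Figure D3:**
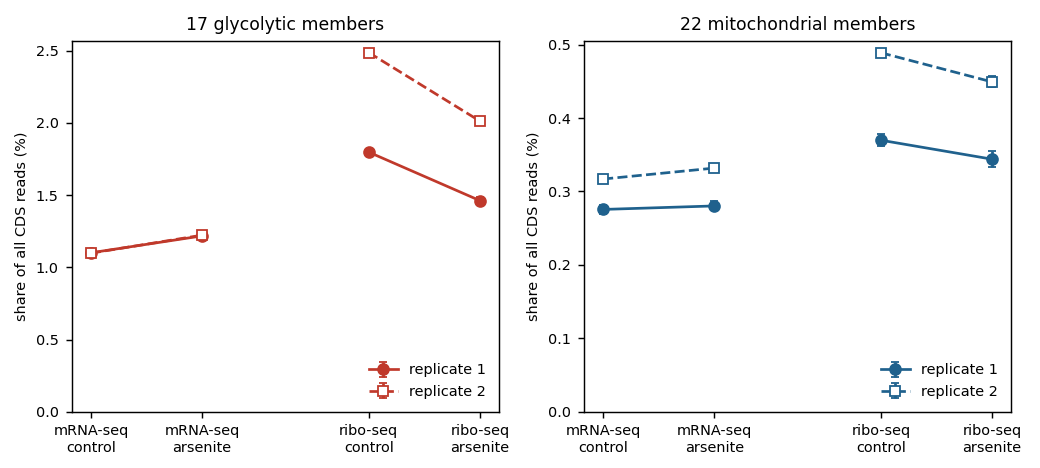
Share of all CDS reads (percent) on the 17 glycolytic genes (left) and the 22 mitochondrial genes (right) in mRNA-seq and ribo-seq libraries of control and arsenite, with a line for each replicate and bars for the 95% Wilson interval of counting error. In both replicates the ribo-seq share falls in arsenite, from 2.49% to 2.01% for the glycolytic genes of replicate 2, while their mRNA-seq share goes from 1.10% to 1.22%.

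For single genes the change in ribosome occupancy, the ribo-seq counts on the CDS, did not pass the test. None of the 43 did in edgeR's quasi-likelihood test, where 2.81% of the 10291 genes tested passed, 1.46% as higher and 1.35% as lower. An unadjusted p under 0.05 was found for 5 of the 43, against 1811 of all 10291 genes. With DESeq2 0 of the 43 passed, where 29 of all genes passed as higher and 25 as lower. The median log2 change was -0.15 over the glycolytic genes and -0.08 over the mitochondrial ones, against 0.00 over all genes. These changes are relative to the bulk of mRNAs and leave out any decrease of translation that all mRNAs share. LDHB went from 3309 to 1994 CPM in replicate 1 and from 3089 to 2273 in replicate 2, so that both arsenite values lay below both control values. Its log2 change was -0.59 ± 0.18 (SE; edgeR, adjusted p = 0.0859). GAPDH went from 3573 to 2637 and from 6834 to 4376 CPM, lower within each replicate although the groups overlap, with -0.54 ± 0.18 (adjusted p = 0.113). ALDOA went from 1510 to 1004 and from 2671 to 1950 CPM, with -0.52 ± 0.18 (adjusted p = 0.124). LDHB passed when genes with a mean under 50 counts were left out, and LDHB, GAPDH and ALDOA passed without a filter on low counts.

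Other values were of both signs. IDH2 had -0.40 ± 0.21, LDHA -0.37 ± 0.18, ENO1 -0.32 ± 0.18, HK1 -0.32 ± 0.18, IDH3A, a subunit of the NAD-dependent isocitrate dehydrogenase, -0.32 ± 0.20, and MDH2 -0.31 ± 0.18, each below 0 in both replicates. PKM stayed near 0, with 2891 and 2952 CPM in replicate 1 and 3088 and 3117 in replicate 2. OGDH, the ketoglutarate dehydrogenase of the TCA cycle, went from 110 to 160 CPM and from 136 to 190, which left the groups apart, with a log2 change of 0.51 ± 0.19 (edgeR, adjusted p = 0.145). PC had 0.43 ± 0.23. IDH1 had 0.48 ± 0.20, from 0.89 in replicate 1 and 0.13 in replicate 2. The subunits of pyruvate dehydrogenase lay between -0.34 ± 0.19 for PDHA1 and 0.23 ± 0.23 for PDHX, with replicates that differed in sign for PDHX. For comparison ATF4, the stress transcription factor whose mRNA is known to be translated when eIF2 is phosphorylated, rose by a log2 change of 2.18 ± 0.22 (adjusted p = 7.71e-06).

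TE, the change of footprints beyond that of the mRNA, fell for 3 of the 43 genes and rose for 0 (edgeR's quasi-likelihood test of the interaction of assay and treatment, adjusted p of 0.05), where 2.15% of the 10273 genes tested passed, 1.03% as higher and 1.12% as lower. All 3 were glycolytic. ALDOA fell by 0.82 ± 0.14 on the log2 scale (SE; adjusted p = 0.0305), with -0.93 and -0.71 in the replicates. GAPDH fell by 0.73 ± 0.13 (adjusted p = 0.0346), with -0.65 and -0.80. ENO1 fell by 0.62 ± 0.14 (adjusted p = 0.0490), with -0.62 in both. The mRNA-seq libraries enter the fits of RNA level and of TE alike, so that a higher RNA level lowers TE by construction. Side by side, ALDOA had 0.29 in RNA level and -0.52 in ribosome occupancy, GAPDH 0.18 and -0.54, and ENO1 0.30 and -0.32.

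Other glycolytic genes did not pass. GPI had -0.66 ± 0.15 (edgeR, adjusted p = 0.0508), HK1 -0.64 ± 0.15 (0.0535), LDHB -0.57 ± 0.15 (0.0729) and LDHA -0.48 ± 0.14 (0.0898), all below 0 in both replicates. Of the 17 glycolytic genes 11 were below 0 in both replicates and 0 above it in both, where 31.7% and 30.4% of all genes were. Of the 22 mitochondrial genes 11 were below and 5 above. The group medians were -0.21 for both, against -0.01 over all genes, and none of the mitochondrial genes passed. Their lowest values were -0.49 ± 0.17 for MDH2, with -0.21 and -0.74 in the replicates, -0.42 ± 0.20 for SUCLG2 and -0.37 ± 0.15 for CS. OGDH was highest, at 0.42 ± 0.15 (adjusted p = 0.162), followed by IDH1 at 0.41 ± 0.22. DLAT and DLST, which carry lipoic acid in the pyruvate and ketoglutarate complexes, had -0.36 ± 0.15 and -0.31 ± 0.17, and DLD had -0.25 ± 0.15. PDHX, a further subunit of the pyruvate complex, had 0.17 ± 0.23, with 0.86 and -0.15 in the replicates. None of these subunits passed, and differences between them were not tested.

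The TE calls depended on the fit. ALDOA passed in 7 of 9 alternatives, GAPDH in 4 and ENO1 in 2. None of the 43 passed without the replicate block or with a block shared by both assays, and 0 of all 10273 genes did. With mRNA-seq counted within the CDS 1 of the 43 (ALDOA) passed, where 43 of all 10260 genes passed as lower. Without a filter on low counts 6 passed (HK1, GPI, ALDOA, GAPDH, ENO1 and LDHB), where 263 of 13592 genes passed as lower. The adjusted p of ALDOA ranged from 0.00467 to 1 over these alternatives, that of GAPDH from 0.00596 to 1 and that of ENO1 from 0.0180 to 1.

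**Figure D4:**
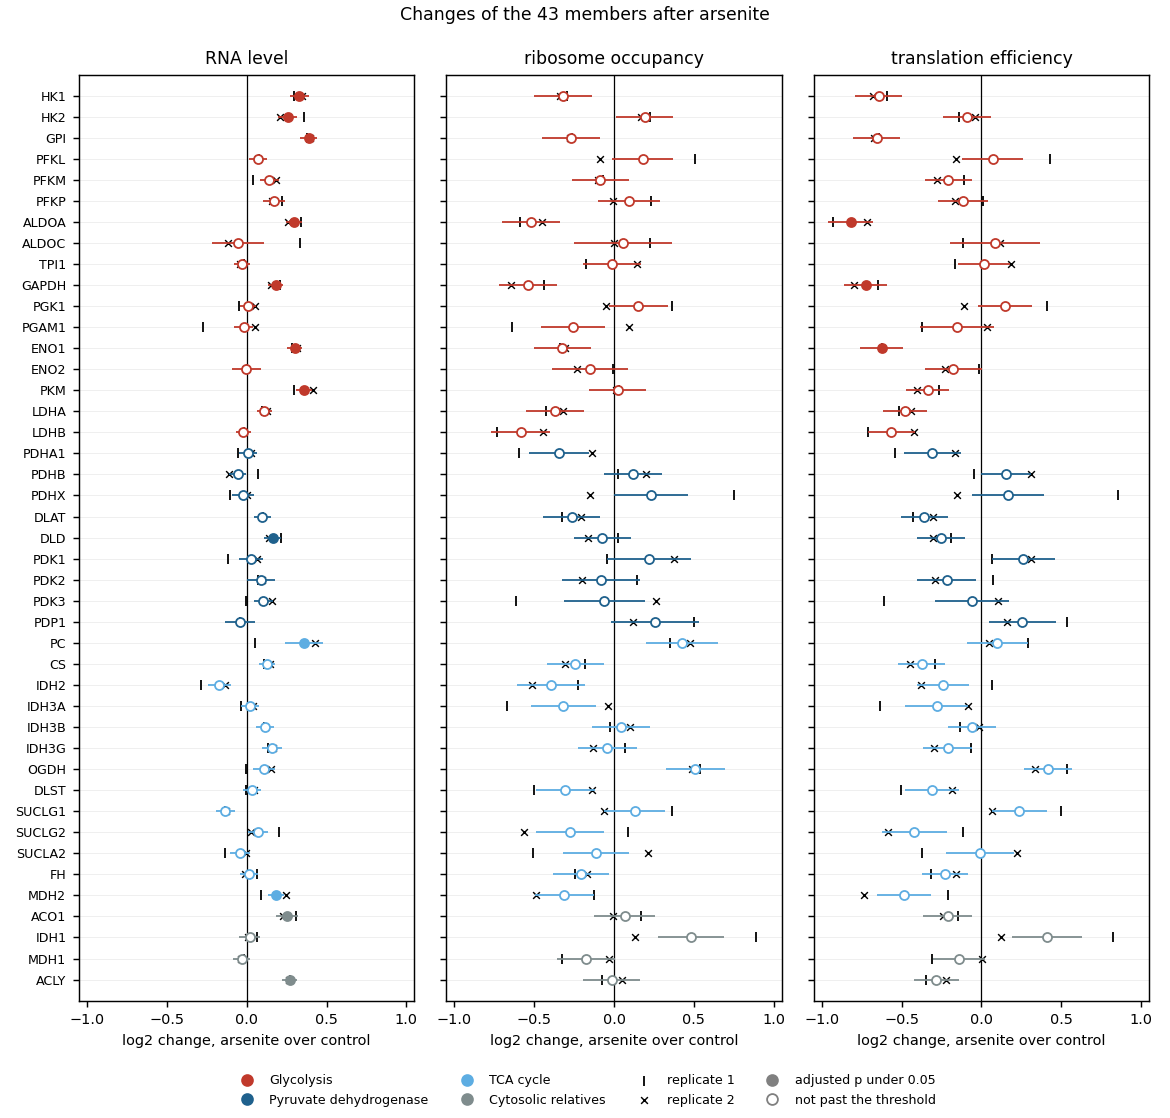
Log2 changes, arsenite over control, of the 43 genes in RNA level, ribosome occupancy and TE, with circles for the estimate and bars for its SE, vertical ticks for replicate 1 and crosses for replicate 2. Filled circles mark an adjusted p under 0.05 (edgeR), reached by 12 genes in RNA level, 0 in ribosome occupancy and 3 in TE, of which ALDOA was lowest at -0.82.

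Isozymes of the same step can be set side by side. In TE, HK1 had -0.64 ± 0.15 and HK2 -0.09 ± 0.15, although the RNA of both rose. HK2 binds mitochondria as HK1 does and is the form known from fast-growing cells. In ribosome occupancy HK1 went from 216 to 176 and from 200 to 158 CPM, lower in both replicates, and HK2 from 161 to 187 and from 191 to 215, higher in both. ALDOA and ALDOC had -0.82 ± 0.14 and 0.08 ± 0.28 in TE, and ENO1 and ENO2 -0.62 ± 0.14 and -0.18 ± 0.18, where ALDOC and ENO2 rest on few reads. LDHA and LDHB were alike, at -0.48 and -0.57. PFKL, PFKM and PFKP had 0.07, -0.21 and -0.11. Among the kinases that switch pyruvate dehydrogenase off, PDK1 had 0.26 ± 0.20, PDK2 -0.22 ± 0.18 and PDK3 -0.06 ± 0.23, with replicates on both sides of 0 for PDK2 and PDK3. The ATP-forming and GTP-forming succinyl-CoA ligase subunits SUCLA2 and SUCLG2 had -0.01 ± 0.21 and -0.42 ± 0.20. The malate dehydrogenases MDH1 (cytosol) and MDH2 (mitochondria) had -0.14 ± 0.16 and -0.49 ± 0.17, and IDH1 and IDH2 had 0.41 ± 0.22 and -0.24 ± 0.16. These differences between isozymes were not tested, and most are within a few times the standard errors.

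PKM yields the M1 and M2 forms of pyruvate kinase through a pair of mutually exclusive exons, and reads on the shared exons count for both transcripts. The transcript of M2, NM_002654, had more CDS reads than that of M1, NM_182470, in all 8 libraries. In control mRNA-seq the excess was 330 of 3782 reads (8.73%) in replicate 1 and 1058 of 12159 (8.70%) in replicate 2, and in arsenite it was 9.28% and 9.21%. In ribo-seq it was 5.48% and 11.2% in control and 12.2% and 10.2% in arsenite, so it went up in replicate 1 and down in replicate 2. These percentages are of all CDS reads of M2, shared exons included, so they do not give the ratio of M2 to M1.

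Few footprints on these mRNAs lay before the start codon. The 43 genes had 0.0401% and 0.141% of their ribo-seq reads in the 5′ leader in control, against 0.392% and 0.795% over all genes, and 0.112% and 0.419% in arsenite, against 0.490% and 1.52%. Their mRNA-seq reads lay in leaders at 2.42% and 4.62% in control, against 4.11% and 5.01% over all genes. The leader share of footprints was thus higher in arsenite in both replicates for the 43 genes together, as it was for all genes. In replicate 1 this rests on 18 leader reads in control and 23 in arsenite. The mitochondrial genes had 2 and 1 of these, 0.0286% of their footprints in each, which is no rise. In replicate 2 ENO1 alone had 110 of the 343 leader reads in arsenite. In control 17 of the 43 had 0 leader footprints and 31 had fewer than 5, and the same was not counted over all genes. On the transcripts used, TPI1 had 0 leader reads in control mRNA-seq as well, and LDHA had 0 in replicate 1 and 4 in replicate 2. For such genes the lack of leader footprints says little about ribosomes before the start codon. The largest number of leader footprints belonged to ENO1, with 94 in control and 111 in arsenite, with both replicates added. They lay mostly in replicate 2, where control had 89 and arsenite 110, while replicate 1 had 5 and 1, so the replicates moved in opposite directions. DLAT had 1 leader read in control replicate 1 (0.234% of its footprints) and 45 in replicate 2 (2.09%), HK2 had 1 (0.358%) and 26 (1.74%), and IDH1 had 4 (1.95%) and 11 (1.33%). The order of these 3 genes thus differed between the replicates, and the numbers in replicate 1 are too small to rank them.

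Other genes of these pathways, a list of 57 present in the files that holds transporters, regulators, the pentose phosphate pathway and the remaining TCA enzymes, give the setting. Of 40 tested for RNA level 5 rose and 0 fell, where 3.75% of all genes passed as higher and 2% as lower. They included TKT, a transketolase (log2 0.36; edgeR, adjusted p = 1.17e-09), and the glucose transporter SLC2A1 (0.30, adjusted p = 0.00552). Of 36 tested for ribosome occupancy 1 passed as higher and 1 as lower, against 1.46% and 1.35% of all genes. The latter, VDAC3, a channel of the outer mitochondrial membrane, fell by 0.87 on the log2 scale (edgeR, adjusted p = 0.0133), and it was the only one of the 36 tested to pass in TE, where it fell by 0.81 (adjusted p = 0.0346). In baseline TE 25 of 36 passed as higher, where 28.3% of all genes did, with GLUD1 (2.09), PGD (1.55) and SLC16A1 (1.43) at the top, and 3 as lower, namely BPGM (-0.75), ADPGK (-0.47) and SDHB (-0.31). GLUD1 had only 47 and 208 CDS footprints in the control replicates, and whether its value was affected by discarded reads that fell on more than 1 gene was not tested. The median RNA change of this list was -0.02 and its median TE change -0.03.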

How the data were processed

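The authors trimmed adapters (cutadapt), removed rRNA and spike-in reads, aligned the rest to RefSeq transcripts with Bowtie 1.0.0 and discarded reads that fell on more than 1 gene. They deposited raw counts per transcript, split into leader, CDS and 3′ UTR. Each gene was represented by the coding transcript with the most CDS reads over both control ribo-seq libraries, and mRNA-seq reads would have picked the same one for 39 of the 43.

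Genes that averaged 10 counts or more in each assay used were tested with edgeR 4.0.16 (quasi-likelihood, TMM, Benjamini-Hochberg over all genes, threshold 0.05). RNA level used counts over the transcript, ribosome occupancy counts on the CDS, and TE their interaction. Standard errors are the log2 change divided by the square root of F, and a prior count of 0.5 was added for the change in each replicate. With so few libraries these errors rest largely on the spread shared over all genes, most of all for RNA level. The replicate was a block, since by the methods replicates differed in adapter and sequencing. For TE the block lay within each assay. Both assays came from 1 lysate, but their libraries were prepared separately, so a replicate can deviate differently in each. Deviations from the group means correlated within replicates at 0.807 in mRNA-seq and 0.717 in ribo-seq. The fits were also run on counts simulated from the fitted models with the same blocks, which cannot test the choice of block.

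The genes and lists were chosen with earlier results of these data known. Values are given for genes past the threshold, the 5 glycolytic and 5 mitochondrial genes with the most control footprints, and sets of isozymes. Related genes are named only past the threshold, up to 3 per direction and fit, some genes of the lists are not reported here, and a few others in the text were picked after their values were seen. Alternatives were DESeq2 1.42.0, upper-quartile scaling, other filters, blocks, transcripts and read regions, and leaving out each replicate. The fit of the control libraries alone was given 1 additive block after the data were seen.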

Additional observations from a re-analysis of the deposited data

How the results depend on the processing

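The shallow replicate 1 limits ALDOC, ENO2, PC and the regulators of pyruvate dehydrogenase most. The replicate block decided the calls. Without it 0 of the 43 genes passed as higher in RNA level, against 12, 0 as lower in TE, against 3, and 5 as higher in baseline TE, against 38. Over all genes 0 passed in RNA level, 0 in TE and 197 as higher in baseline TE without it. A block shared by both assays left 0 in TE, of the 43 as of all genes. The control libraries alone left 19 of the 43 in baseline TE, where 852 of all genes passed as higher. Both are fits with other residual degrees of freedom. In RNA level 6 genes passed with DESeq2, which gave no adjusted p for 10015 of 12600 genes, and 7 when mRNA-seq was counted within the CDS, which leaves fewer reads. Over all genes 80 and 201 passed as higher in these fits, against 473 in the main fit. In TE 1 passed with upper-quartile scaling, 1 with a mean of at least 50 counts, 1 with mRNA-seq counted within the CDS and 6 without a filter. Over all genes, in the same order, 70 of 10273, 68 of 7349, 43 of 10260 and 263 of 13592 passed as lower. In ribosome occupancy 3 passed as lower without a filter and 1 with at least 50 counts, against 0. Over all genes 294 of 13636 and 281 of 7381 passed as lower in these fits. Where no reason is named, the cause was not tested. The footprint share of glycolytic genes in control was 1.62% without GAPDH, against 2.14%, and that of mitochondrial genes 0.340% without MDH2, against 0.429%. The ratio of arsenite to control was 0.850 without GAPDH, 0.807 with reads over the whole transcript, and 0.953 for mitochondrial genes without MDH2. Leaving out a replicate left 1 library a group, which gives a value and no test. Of the genes called, PFKL in baseline TE alone changed sign, with -0.095 in replicate 1 and 0.85 in replicate 2. Under the other settings no called change turned direction, and 14 values that had not passed changed sign under at least 1 setting.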
